A study of Mus musculus with 2 samples.

Results

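The TGF-beta, BMP and myostatin pathway was described in mouse gastrocnemius, the large superficial muscle of the calf, through 50 listed genes of the 55536 Ensembl genes measured. The genes were listed by name and not by a rule on their values, though with earlier results of these data known. They comprise 18 ligands or ligand subunits, 13 receptors, 8 Smads, 7 extracellular antagonists and 4 latent TGF-beta binding proteins. The tissue came from female B6CASTF1/J mice, the F1 hybrids of C57BL/6J and CAST/EiJ, aged 4 days. The 2 biological replicates, animals numbered 3 and 4, formed 1 group, with no treatment, mutant or second age to set against it. Both libraries were total RNA-seq from 300 ng of RNA, and they held 30961087 expected counts in replicate 1 and 36246031 in replicate 2. Both carry the same donor record, so whether the animals came from separate litters is not known, and the spread given here is that between these 2 libraries.

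Ligands of this family are secreted dimers that bring together type II and type I receptor kinases on the cell surface. The type I receptor then phosphorylates Smad2 and Smad3 for TGF-beta, activin and myostatin, or Smad1, Smad5 and Smad9 for BMPs, and these enter the nucleus with Smad4. In skeletal muscle the best known member is myostatin, encoded by Mstn, which is made by muscle fibres and limits muscle mass, while BMP signalling acts in the opposite direction on muscle mass. TGF-beta is secreted in a latent form that latent TGF-beta binding proteins tether to the matrix, and follistatin, noggin, chordin and gremlin bind ligands outside the cell.

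Start-site sequences are shown for the leading ligand, Mstn, for its closest relative, Gdf11, and for both start regions of Ltbp4, the most abundant latent binding protein. Each is the 150 bases before a RefSeq start site (build GRCm38.p6), written 5′ to 3′ on the strand of the gene. Capitals mark CANNTG (the E-box, the core bound by myogenic factors), TATAAA and GGGCGG (the GC box), with the last 2 searched on both strands and overlapping matches counted. The Mstn window lies at chr1:53061490-53061639 on the plus strand and the Gdf11 window at chr10:128891719-128891868 on the minus strand. The Ltbp4 windows lie on the minus strand at chr7:27333664-27333813 and chr7:27337613-27337762.
Mstn: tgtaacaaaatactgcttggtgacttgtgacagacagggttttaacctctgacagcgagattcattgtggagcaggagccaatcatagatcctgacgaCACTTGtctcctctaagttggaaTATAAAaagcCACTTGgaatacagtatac
Gdf11: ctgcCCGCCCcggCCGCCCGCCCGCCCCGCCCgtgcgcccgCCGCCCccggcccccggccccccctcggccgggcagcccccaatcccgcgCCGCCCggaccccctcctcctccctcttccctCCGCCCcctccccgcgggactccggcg
Ltbp4 downstream start: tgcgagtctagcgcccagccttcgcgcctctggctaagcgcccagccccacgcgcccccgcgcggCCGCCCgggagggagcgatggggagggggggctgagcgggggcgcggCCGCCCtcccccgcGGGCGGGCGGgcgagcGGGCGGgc
Ltbp4 upstream start: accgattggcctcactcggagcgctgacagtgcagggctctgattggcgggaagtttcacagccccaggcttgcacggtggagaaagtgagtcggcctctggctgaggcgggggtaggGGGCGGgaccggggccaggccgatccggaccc
The Mstn window held 2 CANNTG matches, both CACTTG, and 1 TATAAA, at 42.0% GC. The Gdf11 window held neither motif but 8 GGGCGG matches, at 88.0% GC. The downstream Ltbp4 window held 5 GGGCGG matches and the upstream one held 1. In all, 36 of the 50 members had an entry in the RefSeq table, with 46 start sites. Close neighbouring sites of Ltbp4, and likewise of Smad5, gave overlapping windows, so their shared letters were counted more than once. CANNTG was found at 23.9% of the members' sites, against 47.7% of all 32851 promoter windows of that length, and TATAAA at 8.70%, against 7.57%. GGGCGG was found at 58.7% of the members' sites, against 28.6% of all windows. A match is a description of the letters in the window and not a bound site.

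A gene was counted as detected at 1 TPM (a level corrected for gene length and sequencing depth) or more in both libraries. By this rule 42 of the 50 members, or 84.0%, were detected, against 24.0% of all Ensembl genes and 54.8% of protein-coding genes. All 13 receptors and all 4 latent binding proteins were detected, as were 13 of 18 ligands, 7 of 8 Smads and 5 of 7 antagonists. The 8 that were not detected were Gdf5, Gdf6, Gdf15, Bmp2, Inhbb, Smad9, Fstl3 and Grem1. Median levels were 2.64 TPM over all ligands, 14.3 over receptors, 15.4 over Smads, 4.66 over antagonists and 31.6 over latent binding proteins. The detected members spanned 190-fold in level, with a median of 10.4 TPM, against 9.40 TPM over the 13336 detected genes. Their summed level was 812 TPM in replicate 1 and 818 TPM in replicate 2. Fstl1 alone made up 30.5% and 33.5% of that sum. In bulk tissue, more cells of a type and more RNA per cell cannot be told apart, which holds for every level given here.

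**Figure D1:**
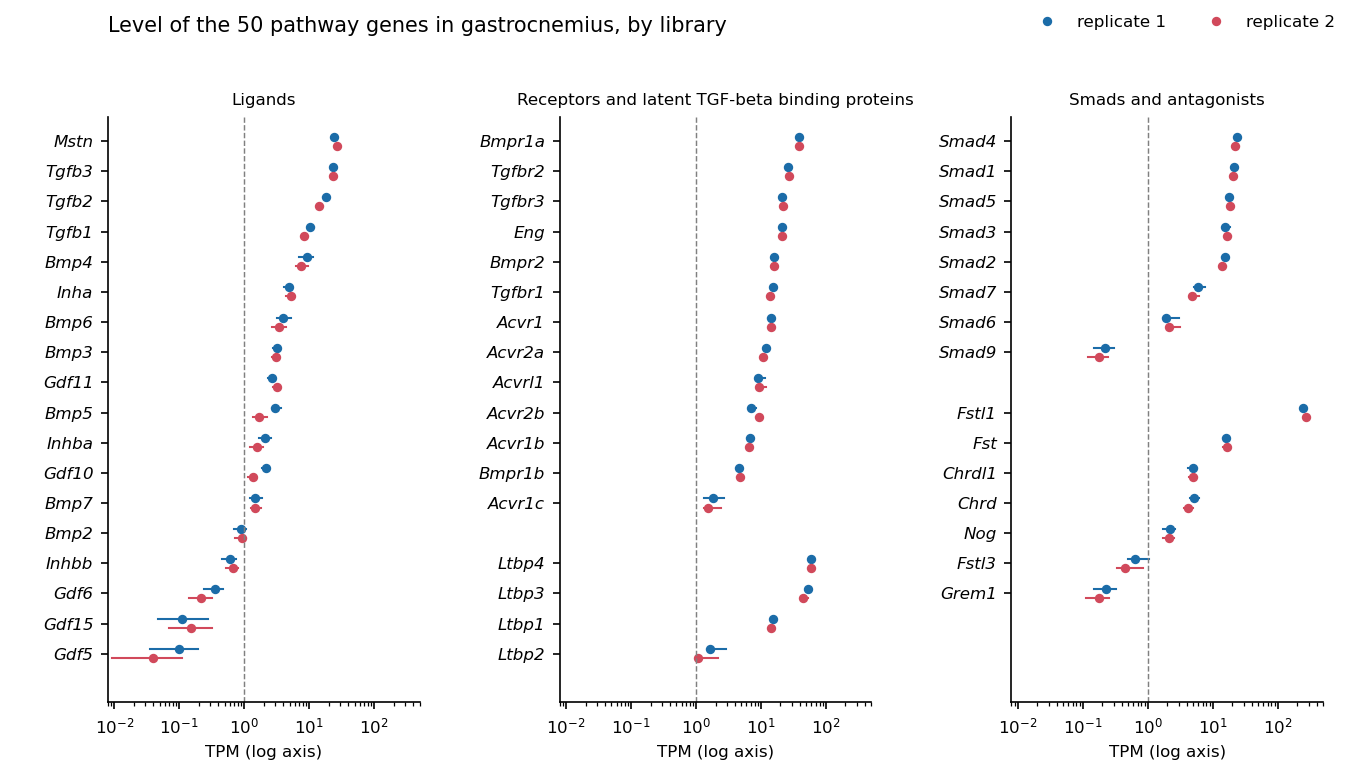
Level of each of the 50 members in TPM (log axis) in replicate 1 (blue) and replicate 2 (red), grouped by role and ordered by mean. Points are the deposited TPM, horizontal lines the authors' interval for that library, and the dashed line marks 1 TPM; Fstl1 stands highest at 247 and 274 TPM and Gdf5 lowest at 0.10 and 0.04 TPM.

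Mstn was the highest of the ligands. It had 23.7 TPM in replicate 1 and 26.5 TPM in replicate 2 (25.1 ± 1.93, SD, n = 2), from 1732 and 2191 expected counts, and stood at the 79.1 percentile of detected genes. The gene lies at chromosome 1, 53061640 to 53068079, on the plus strand (build mm10, GENCODE M21). Gdf11, which encodes the ligand closest to myostatin in sequence, had 2.66 and 3.19 TPM. Mstn was thus 8.92 and 8.30 times as high as Gdf11 on the TPM scale, and it held 89.6% ± 0.48 (SD, n = 2) of their sum. Both genes were lower in replicate 1.

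All 3 TGF-beta ligands were detected, and Tgfb3 led them. Tgfb3 had 23.1 and 23.4 TPM, close to Mstn, and these neighbours in the order of levels did not differ beyond their spread. Tgfb2 had 18.2 and 14.4 TPM. Tgfb1, the isoform usually studied in fibrosis and inflammation, had 10.3 and 8.24 TPM. Tgfb3 was above Tgfb2 and Tgfb2 above Tgfb1 in both libraries. Tgfb3 held 47.8% ± 4.34 of the 3 ligands' sum, Tgfb2 33.2% and Tgfb1 18.9%. Tgfb3 overlaps Ttll5 on the opposite strand, which had 7.22 and 6.81 TPM, and whether counting kept the strands apart is not given in the sources used.

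Among the BMP ligands, Bmp4 was highest, with 9.28 and 7.51 TPM. Bmp4 did not differ from Tgfb1, its neighbour in the order, beyond their spread. Bmp6 followed with 4.02 and 3.44 TPM, and Bmp3, which antagonises other BMPs in bone, with 3.18 and 3.04 TPM. Bmp6 overlaps Txndc5 on the opposite strand, a gene at 46.4 and 46.6 TPM, so its level is uncertain. Bmp5 had 3.03 and 1.67 TPM and Bmp7 had 1.48 and 1.47 TPM. Bmp2, which shares its receptors with Bmp4, stayed under the detection level at 0.88 and 0.91 TPM, and Bmp4 was 10.5 and 8.25 times as high. Bmp4 held 42.0% ± 0.57 of the BMP ligands' TPM. A noncoding transcript of 258 bases, Bmp4-204, carried 31.4% and 12.1% of the Bmp4 TPM from only 12.96 and 4.58 expected counts. The level of Bmp4, its ratio to Bmp2 and its share thus rest in part on few counts. By expected counts, which are not corrected for length, Bmp3 led with 32.7% and Bmp4 held 19.3%.

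The inhibin and activin subunits were low. Inha, the alpha subunit that turns an activin into an inhibin, had 4.91 and 5.17 TPM. Inhba, the subunit of activin A, had 2.12 and 1.59 TPM, and Inhbb, the subunit of activin B, had 0.60 and 0.67 TPM. Gdf10, a BMP3-like ligand, had 2.14 and 1.36 TPM. Bmp3, Gdf11, Bmp5, Inhba, Gdf10 and Bmp7 followed each other in the order of levels, and no neighbouring pair among them differed beyond its spread.

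The lowest ligands rested on few counts. Gdf6, a joint and limb ligand, had 34 and 24 expected counts, with exact Poisson 95% intervals of 23.5 to 47.5 and 15.4 to 35.7. Gdf15, a stress-induced hormone, had 4 and 6 counts, with intervals of 1.09 to 10.2 and 2.20 to 13.1. Gdf5, which marks forming joints, had 6 and 3 counts, with intervals of 2.20 to 13.1 and 0.62 to 8.77. These intervals cover counting error only, and at this depth the libraries could not be told apart for Gdf6, Gdf15 or Gdf5.

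Every receptor of the list was detected, and Bmpr1a, a type I receptor for BMPs, was highest. Bmpr1a had 39.2 and 38.5 TPM and held 43.1% ± 0.078 of the type I receptors' TPM. Tgfbr1, the type I receptor for TGF-beta, had 15.6 and 13.6 TPM, and Acvr1, a BMP receptor mutated in a human disease of ectopic bone, had 14.1 and 14.5 TPM. Acvrl1, the endothelial receptor for BMP9 and BMP10, had 8.89 and 9.49 TPM. Acvr1b, the main type I receptor of activin, had 6.70 and 6.55 TPM, and Bmpr1b had 4.63 and 4.84 TPM. Acvr1c, a receptor for nodal and related ligands, was lowest with 1.80 and 1.56 TPM. The BMP type I receptors (Acvr1, Acvrl1, Bmpr1a and Bmpr1b) summed to 66.8 and 67.3 TPM, and the TGF-beta and activin type I receptors (Tgfbr1, Acvr1b and Acvr1c) to 24.1 and 21.7 TPM. The first sum was 2.77 and 3.10 times the second.

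Of the type II receptors, Tgfbr2, which binds TGF-beta, had 26.4 and 26.9 TPM and held 42.9% ± 0.13 of their TPM. Bmpr2, the BMP type II receptor, had 16.2 and 15.6 TPM. Bmpr2 transcripts averaged 12249 and 12317 bases in length, and by expected counts Bmpr2 led with 48.1% while Tgfbr2 held 31.5%. Acvr2a and Acvr2b, which bind activins and myostatin, had 12.1 and 10.8 TPM and 7.13 and 9.26 TPM. Acvr2a was 1.69 times as high as Acvr2b in replicate 1 and 1.16 times in replicate 2, so the order held while the gap narrowed. The co-receptors Tgfbr3, also called betaglycan, and Eng, the endothelial co-receptor endoglin, were level, at 21.4 and 22.0 TPM and at 21.4 and 21.3 TPM. Tgfbr3 and Eng did not differ beyond their spread, and neither did Bmpr2 and Tgfbr1, Tgfbr1 and Acvr1, or Acvrl1 and Acvr2b. Acvr2a overlaps Orc4 on the opposite strand (12.6 and 14.7 TPM) and Eng overlaps Fpgs (7.45 and 7.20 TPM). All type I receptors together were 1.47 and 1.42 times the type II receptors.

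Among the Smads, the shared partner Smad4 was highest, with 23.3 and 22.3 TPM. The BMP-activated Smad1 and Smad5 had 21.02 and 20.62 TPM and 18.03 and 18.38 TPM, whereas Smad9, the other BMP Smad, had 0.22 and 0.18 TPM and made up 0.51% of the BMP Smads' TPM. The TGF-beta-activated Smad3 and Smad2 had 15.6 and 16.5 TPM and 15.4 and 14.0 TPM. Smad3 held 52.2% of their sum in the gene tables and 45.2% in the other quantification deposited for the same libraries, so the order of Smad3 and Smad2 depends on the table. The BMP Smads summed to 1.27 and 1.28 times the TGF-beta Smads on the TPM scale. Smad7, the inhibitory Smad induced by TGF-beta, had 5.91 and 4.83 TPM, and Smad6, the inhibitor of BMP receptors, had 1.93 and 2.15 TPM. Smad7 was 3.06 and 2.25 times as high as Smad6.

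**Figure D2:**
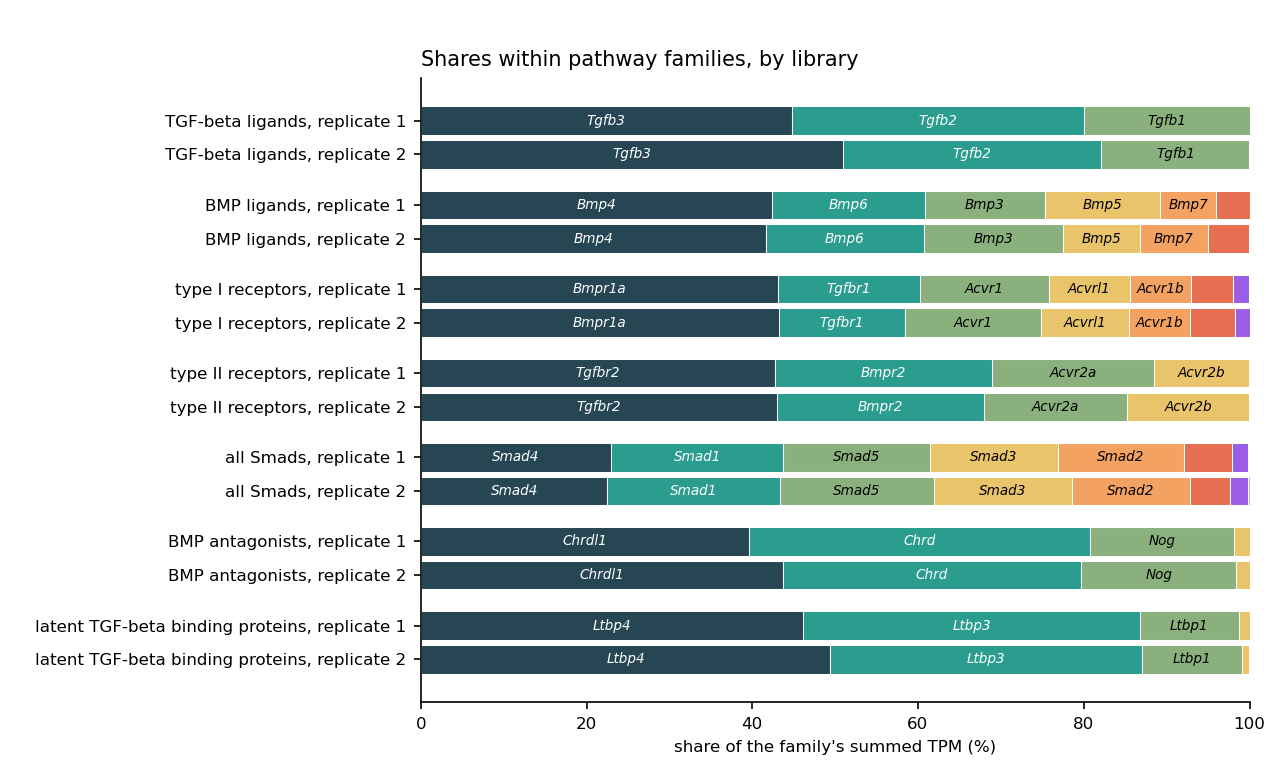
Share of each member in the summed TPM of its family (percent), for replicate 1 (upper bar of each pair) and replicate 2 (lower bar), with segments ordered by mean share. Tgfb3, Bmp4, Bmpr1a, Tgfbr2, Smad4 and Ltbp4 lead their families in both libraries, while Chrdl1 and Chrd change places between them.

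The extracellular antagonists were dominated by Fstl1, a follistatin-related glycoprotein of mesenchymal cells. Fstl1 had 247 and 274 TPM (260.7 ± 18.7, SD, n = 2) and stood at the 98.1 percentile of detected genes. Fst itself, follistatin, which binds activins and myostatin and blocks them, had 16.3 and 16.6 TPM. Fstl1 was 15.2 and 16.5 times as high as Fst. Mstn was 1.46 and 1.60 times as high as Fst, its antagonist. Noncoding Fst transcripts with retained introns held 24.0% and 28.7% of the Fst TPM. The ratios of Fstl1 and Mstn to Fst thus rest in part on them. In the other quantification noncoding transcripts held a mean of 4.98% of the Fst TPM, and Mstn was 1.45 times as high as Fst. Fstl3, another binder of activin and myostatin, had 0.64 and 0.44 TPM, from 33 and 26 counts with exact Poisson 95% intervals of 22.7 to 46.3 and 17.0 to 38.1.

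The BMP antagonists were lower than the BMP ligands. Chrdl1, chordin-like 1, had 4.98 and 5.01 TPM and Chrd, chordin, had 5.18 and 4.13 TPM, so that the order of these neighbours turned between the libraries. Nog, noggin, had 2.19 and 2.15 TPM. Grem1, gremlin, had 0.23 and 0.18 TPM, from 26 and 23 counts (intervals 17.0 to 38.1 and 14.6 to 34.5). These 4 antagonists summed to 12.6 and 11.5 TPM, against 21.87 and 18.04 TPM for the 6 BMP ligands, a ratio of 0.575 and 0.636.

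Latent TGF-beta binding proteins stood high as a group. Ltbp4 had 59.2 and 58.6 TPM, the highest level of the list after Fstl1, and Ltbp3 had 52.2 and 44.7 TPM. Ltbp1, the first member described, had 15.3 and 14.3 TPM, and Ltbp2, the one that does not bind latent TGF-beta, had 1.66 and 1.09 TPM. The second value lies under the authors' own interval for that library, 1.15 to 2.20 TPM, the only such case in replicate 2 among the 50 members, with none in replicate 1. All neighbours in this family differed beyond their spread. Together the 4 genes summed to 2.49 and 2.57 times the 3 TGF-beta ligands on the TPM scale. Variants of Ltbp4 modify muscle and connective tissue disease in mouse and human.

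Most members differed little between the 2 libraries. A log2 ratio of replicate 1 over replicate 2 was taken after scaling the counts by trimmed mean of M values. With 1 library on each side no p-value applies to this ratio. For the order of 2 members in level, an exact two-sided permutation test of 2 values against 2 cannot go below 0.33. A mean count of 100 or more was reached by 42 of the 50 members. Of these 1 was over 2-fold apart, or 2.38%, against 0.718% of 12256 genes. Over 1.5-fold apart were 3 members, or 7.14%, against 2.46% of those genes. The median log2 ratio was 0.02 over these members and -0.02 over all genes at that depth, and the median size of the ratio was 0.081 and 0.115. The biological coefficient of variation, the relative spread between libraries over all genes, was 0.127.

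The member over 2-fold apart was Bmp5, with 316 and 176 expected counts and a log2 ratio of 1.01. In the other quantification the Bmp5 log2 ratio was 0.95, and with a prior count of 5 it was 0.9999, both under 2-fold. Inhba followed with 219 and 155 counts and a log2 ratio of 0.67, and Gdf10 with 306 and 221 counts and 0.64. Tgfb1 had a log2 ratio of 0.32 and Ltbp2 of 0.20. The 5 lowest were Acvr2b at -0.41, Gdf11 at -0.26, Acvr1c at -0.20, and Mstn and Smad6, both at -0.16. Of the 42 members, 25 were higher in replicate 1 and 17 in replicate 2. The share higher in replicate 1 was 59.5% of these members and 44.7% of all 12256 genes averaging 100 counts or more. With ERCC spike-ins as the scale, 36 were higher in replicate 1 and 6 in replicate 2. Most genes did the same on the spike-in scale, with 77.1% of the 12256 higher in replicate 1. That scale shifted the log2 ratio of the median gene by 0.14, and 11 members changed sign.

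**Figure D3:**
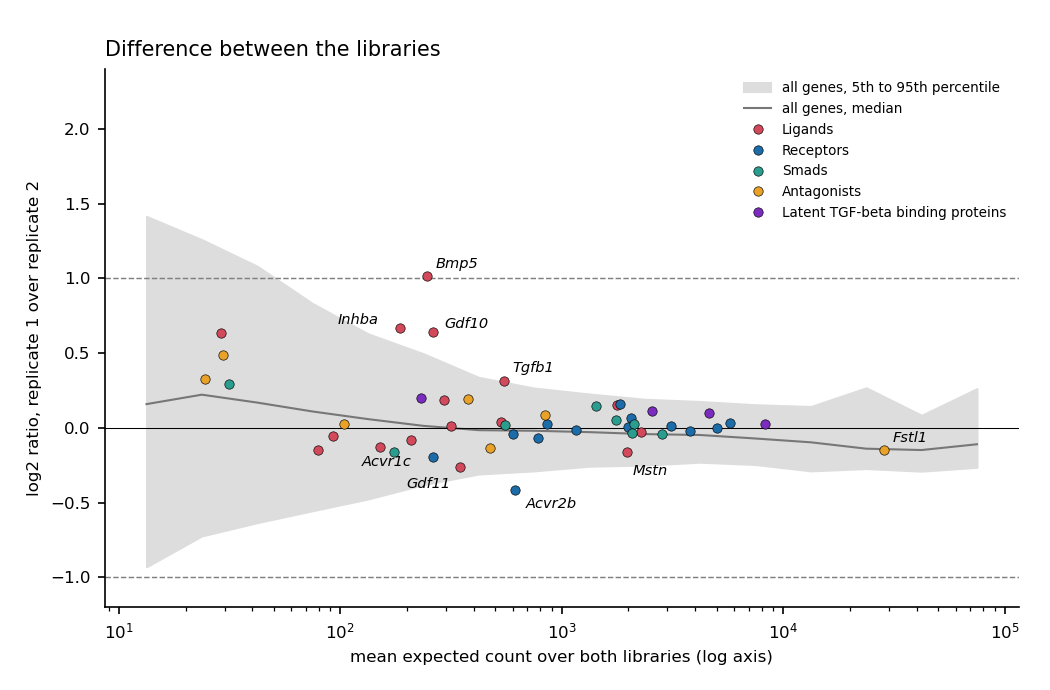
Log2 ratio of replicate 1 over replicate 2 against the mean expected count (log axis) for members averaging 10 counts or more, coloured by role. The grey band holds the 5th to 95th percentile of all genes in bins of mean count and the grey line their median; dashed lines mark 2-fold. Bmp5 lies at 1.01 and Acvr2b at -0.41, while 35 of 42 members with at least 100 counts lie within 0.2 of 0. The median size of the ratio was 0.081 over these 42 members and 0.115 over all genes at that depth.

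The authors' gene tables give an interval for each TPM in each library, at a confidence level their headers do not state, and these intervals did not overlap between the libraries for 8 of the 42 detected members, or 19.0%, against 12.1% of all detected genes. Tgfb1, Tgfb2, Tgfbr1, Bmp5 and Gdf10 were higher in replicate 1 by this measure, and Fstl1, Mstn and Acvr2b in replicate 2. The interval of Bmp5 was 2.71 to 3.73 TPM in replicate 1 and 1.37 to 2.26 TPM in replicate 2. That of Mstn was 22.1 to 24.3 TPM in replicate 1 and 24.8 to 27.0 TPM in replicate 2. For Ltbp2 the difference in TPM came with nearly equal counts, 234 and 230, and an estimated transcript length of 5140 bases in replicate 1 and 6743 in replicate 2. The estimated length also differed for Tgfbr1, at 4616 and 5025 bases, and for Tgfb2, at 3565 and 4026.5 bases. By scaled counts the log2 ratio was 0.07 for Tgfbr1 and 0.16 for Tgfb2, so both differed less by counts than by TPM.

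Markers of many other cell types and tissues moved between the same libraries. Tendon markers were higher in replicate 1 in 7 of 7 cases, with summed levels of 326 and 185 TPM. Bone markers were higher in replicate 1 in 8 of 8, with sums of 35.3 and 2.95 TPM, and Ibsp and Mmp13 were at 0 in replicate 2. Cartilage markers were higher in replicate 1 in 5 of the 6 with enough counts, with sums of 60.4 and 28.7 TPM. Sox9, at 1.15 and 1.21 TPM, was the exception. Col10a1 and Matn1 were at 0 in replicate 2, from 70 counts and only 1 count in replicate 1. Muscle fibre markers were lower in replicate 1 in 8 of 8, with sums of 36558 and 43307 TPM, and satellite cell markers in 7 of 7, with sums of 196 and 225 TPM. Red cell markers were higher in replicate 1 in 7 of 7, with sums of 1237 and 230.3 TPM, and neutrophil markers in 6 of 6, with sums of 74.9 and 13.7 TPM. Liver markers were lower in replicate 1 in 7 of 7, with sums of 10.9 and 110 TPM, Schwann cell markers in 7 of 7, with 318 and 424 TPM, and keratinocyte markers in 6 of 6, with 3.91 and 6.54 TPM. Fibroblast markers were higher in replicate 1 in 3 of 8 and summed to 2631 and 2625 TPM. Endothelial markers were lower in replicate 1 in 7 of 8; Egfl7, at 77.1 and 50.9 TPM, was the exception, and the sums were 262 and 250 TPM. Adipocyte markers were higher in replicate 1 in 4 of 5 with enough counts (397 and 334 TPM), macrophage markers in 5 of 7 (97.8 and 89.8 TPM) and mural cell markers in 3 of 7 (286 and 291 TPM). All 8 muscle fibre markers were detected. The part of these cells and tissues in the differences of Bmp5, Inhba, Gdf10, Mstn or Acvr2b was not tested.

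Transcripts of most members were carried by a single leading form. Of the 50 members, 12 have 1 annotated transcript. The leading transcript held at least 60% of the gene's TPM in both libraries for 39 members (29 in the other table), and it was the same in both libraries and both deposited transcript tables for 44. Mstn-201, which encodes the full protein of 376 residues, held 100% of the Mstn TPM in both libraries of the main table.

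For Ltbp4, transcript Ltbp4-205 (1600 residues) held 75.0% and 79.7% of the TPM, and Ltbp4-201 (1666 residues) 15.3% and 11.2%. Transcripts starting within 100 bases of the downstream start shown above held 77.2% and 80.4%, and those at the upstream start held 15.3% and 11.2%. In the other table the mean shares over the libraries were 65.2% at the downstream start and 24.5% at the upstream start. For Ltbp1, the long form Ltbp1-201 (1712 residues) held 67.0% and 61.7%, and the short form Ltbp1-202 (1341 residues) 24.9% and 33.2%. In the other table a processed transcript, Ltbp1-207, led with 40.4% and 38.7%, so the split of Ltbp1 is uncertain. For Tgfbr2, the form of 567 residues held 69.5% and 70.1% and that of 592 residues 30.5% and 29.9%.

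Fst was split between several transcripts. Fst-202, which encodes the shorter follistatin of 317 residues, held 45.8% and 41.8%, and Fst-205, of 343 residues, 30.1% and 28.1%. The other table reversed them, with 42.3% and 39.9% for Fst-202 and 50.7% and 47.5% for Fst-205. A retained intron of 673 bases, Fst-203, held 19.8% and 26.3% in the main table, from 51.79 and 79.44 expected counts. In the other table its mean share was 1.73%. The leading transcript also differed between the tables for Acvrl1 (Acvrl1-205 against Acvrl1-201, which encode proteins of the same 502 residues) and Eng (Eng-201 against Eng-202). It held under 60% in both libraries for Bmp4-202, with 43.5% and 54.3%, for Chrdl1-202, with 42.2% and 50.1%, for Smad2-201, with 35.1% and 47.0%, and for Ltbp3-201, with 37.4% and 43.4%. Transcripts not classed as protein coding (retained introns, processed transcripts and targets of nonsense-mediated decay) held over 20% of the TPM of 7 members. Their share was 37.4% for Chrd, part of it in targets of nonsense-mediated decay, and 36.5% for Ltbp3, all of it in retained introns.

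**Figure D4:**
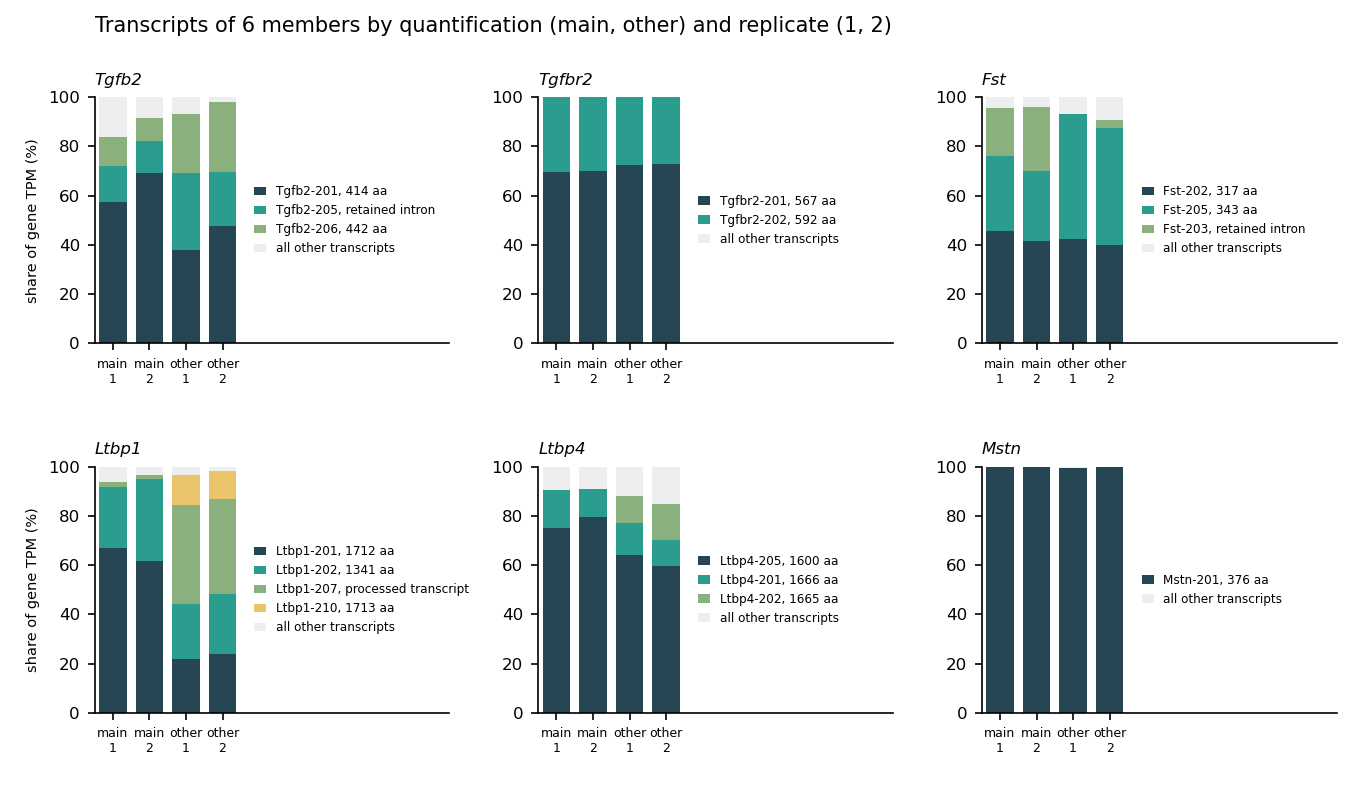
Share of the gene's TPM by transcript (percent) for 6 members, in the main and the other deposited transcript table for replicates 1 and 2; each legend gives the protein length or transcript class. Tgfbr2 and Mstn keep their split in all 4 columns, whereas Ltbp1-201 holds 67.0% and 61.7% in the main table and 21.9% and 24.1% in the other.

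Of 90 other genes of the pathway, in 6 lists, 64 were detected. None of 15 further ligands was, and the highest, Gdf1, had 0.06 and 1.35 TPM. Of 13 genes of latency and activation 12 were detected, led by the integrin subunit Itgb1 (163 and 171 TPM), the membrane protease Mmp14 (92.1 and 85.7 TPM) and the protease Bmp1, which cleaves chordin and the myostatin propeptide (39.2 and 36.4 TPM). Of 17 further antagonists 12 were detected, led by the proteoglycan Dcn, which binds TGF-beta (275 and 246 TPM), Igsf1 (39.5 and 48.0 TPM) and the BMP antagonist Nbl1 (25.4 and 26.5 TPM). Of 9 further co-receptors and decoys 8 were detected, led by the BMP co-receptor Rgma (35.9 and 37.7 TPM), its receptor Neo1 (32.6 and 29.9 TPM) and Rgmb (25.2 and 33.0 TPM).

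Of 20 nuclear partners and regulators 19 were detected, led by the Smad phosphatase Ppm1a, with 84.9 TPM in both libraries, the Smad-binding repressor Zeb2 (54.2 and 60.2 TPM) and the co-repressor Ski (50.2 and 51.4 TPM). Of 16 known target genes 13 were detected, led by the matrix genes Postn (600 and 576 TPM), Fn1 (281 and 277 TPM) and Tgfbi (36.7 and 29.3 TPM). These targets have other inputs besides this pathway, so their levels do not measure its activity. None of these 90 genes that averaged 100 counts or more was over 2-fold apart between the libraries, against 0.718% of all 12256 genes at that depth. None of the 15 further ligands reached that depth. Some genes under that minimum were over 2-fold apart, such as Runx2 (94 and 24 counts, log2 ratio 2.05) and Gdf1 (2.09 and 53.65 counts, -3.68).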

How the data were processed

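Total RNA of gastrocnemius was sequenced in 2 libraries of 1 group. The authors deposited expected counts (estimated, not always whole), TPM and the bounds of a TPM interval (level not stated), a signal never below 0, per gene and transcript. A separate transcript table with estimated counts and TPM, also deposited, was summed per gene and is called the other quantification. Per the file headers and the labels, the build was mm10. Symbols and coordinates (1-based) came from GENCODE M21. Aligner and quantification programs: not given in the sources used here. Alleles were not separated.

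Expected counts were rounded. Library factors came from edgeR 4.0.16 (R 4.3.3) by its trimmed-mean method, using genes that averaged 10 counts or more. The prior count of the log2 ratios was 2, and the dispersion was fitted without covariates, after a test on simulated data. Alternatives included size factors from DESeq2 1.42.0, unscaled library totals, ERCC spike-ins, other minima and prior counts, the other quantification, and leaving out each library. Neighbours in level were separated where their order was the same in both libraries and the gap of means exceeded the larger SD. Every member was named, with the 5 highest and 5 lowest log2 ratios and the 3 highest genes of each further list. The members and lists were chosen with earlier results of these data known. A planned comparison of protein sequences was not made. One item is not reported here. Intervals cover counting error alone: without molecular identifiers, reads cannot be taken for independent molecules.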

Additional observations from a re-analysis of the deposited data

How the results depend on the processing

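No paired analysis was possible because the series has 1 group, so no replicate numbers are shared between groups. With 2 libraries the spread is known only roughly, so the levels are descriptions.

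Levels were higher in the other quantification, by a median of 1.74 times over detected genes, and their order over the members was nearly kept (Spearman 0.988 across genes, which are not independent). There the medians were 4.63 TPM for ligands, 25.6 for receptors, 26.4 for Smads, 7.24 for antagonists and 60.1 for latent binding proteins. In the gene tables, the medians over detected members alone were 3.73 for ligands and 16.1 for Smads. The receptor median in the gene tables was 13.6 and 14.1 TPM with 1 library left out. Rescaling TPM without spike-ins, tRNA entries and mitochondrial genes raised all levels, by more than 1 SD for 33 members.

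By expected counts, which are not corrected for length, family shares moved to 85.0% for Mstn, 19.3% for Bmp4, 86.9% for Gdf6, 43.9% for Inha, 46.8% for Bmpr1a, 31.5% for Tgfbr2, 61.0% for Tgfbr3, 59.2% for Smad3, 38.1% for Smad1, 19.3% for Smad4, 97.0% for Fstl1, 48.2% for Chrdl1 and 52.7% for Ltbp4. In the other quantification they were 89.0% for Mstn, 36.3% for Bmp4, 46.9% for Bmpr1a, 42.3% for Tgfbr2, 51.5% for Tgfbr3, 45.2% for Smad3, 58.3% for Smad1, 25.9% for Smad4 and 44.3% for Ltbp4.

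Members over 2-fold apart numbered 0 among those averaging 1000 counts or more and 0 in the other quantification, and 1 under every other scaling and minimum tried. At a prior count of 5 the log2 ratio of Bmp5 was 0.9999, so this call was lost there too. The number detected was 35 at 2 TPM, 44 at 0.5 TPM, 43 in the other quantification, 48 at 10 counts or more, and 42 with either library left out.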
